A study of Mus musculus with 3 samples.

Results

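The angiopoietin and Tie receptor genes were described across 3 single-colour expression arrays of primary mouse cavernous endothelial cells, which were cultured from the penis of C57BL/6 mice. The set was chosen by gene symbol and held 8 genes of the 19737 that could be named on the array: the ligands Angpt1, Angpt2 and Angpt4, the receptors Tek and Tie1, the phosphatase Ptprb, and the angiopoietin-like genes Angptl2 and Angptl4. They were read by 9 probes, 2 for Ptprb and 1 for each other gene, each printed as 1 spot per array. All 8 were found by their current symbols. The first array was labelled high glucose (30 mmol) with an siRNA against Ninj1 (200 pmol), the second high glucose (30 mmol), and the third normal glucose (5 mmol) with no treatment. Each exposure lasted 48 h, each array held RNA pooled over 3 numbered samples, and every culture received serum, heparin and vascular endothelial growth factor A. A control siRNA in the other cultures is not given in the sources used here. Since each group is a single array of a pool, nothing could be checked against replicates or tested, and "higher" and "lower" only describe these arrays.

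Angiopoietins are secreted ligands of Tie2, the receptor tyrosine kinase encoded by Tek, which keeps endothelial cells quiescent and their junctions tight when it is active. Angiopoietin 1, made mainly by pericytes and other stromal cells, activates Tie2, whereas angiopoietin 2, stored and released by endothelial cells, can block or weakly activate it depending on context. Tie1 binds no angiopoietin by itself and modulates Tie2, and the phosphatase VE-PTP, encoded by Ptprb, removes phosphate from Tie2. The angiopoietin-like proteins share the fold of angiopoietins but do not bind Tie receptors. In the corpus cavernosum the angiopoietin 1 and Tie2 axis is known as a regulator of vessel integrity that has been studied in diabetic erectile dysfunction.

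Levels are given as the processed signal, a linear brightness after background subtraction, and as log2 of that signal minus the 75th percentile of the array (2026 under the siRNA label, 1731 with the high-glucose label and 1781 with the normal-glucose label). The share of probes well above background, a mark set by the scanner software, was 70.6%, 67.6% and 67.1% in the same order, and no spot was saturated. Levels are compared between arrays for each probe and not between probes, which differ in brightness. Repeated spots of 300 probes had a median SD of 0.06 (log2) within an array, or 0.17 for the 36 of them with a mean signal between 20 and 60. For a difference of independent spots these values give a typical SD of 0.08 and 0.24. This covers spot noise and neither culture nor hybridisation error. The scanner software gave each signal an error of its own, which was 10% for bright spots and larger for dim ones. Ninj1, the target of the siRNA, had signals of 25538.5 under the siRNA label, 16291 with the high-glucose label and 20413 with the normal-glucose label. It was thus brightest where its siRNA is labelled. By the words in their file names the arrays labelled siRNA and high glucose would be swapped, and for 2 of the 3 arrays the slide position in the file header is not the one in the file's name. Read by header position, the array labelled siRNA would be normal glucose, the array labelled high glucose the siRNA and the array labelled normal glucose high glucose. Both of these other readings put the siRNA on the array labelled high glucose, where Ninj1 was lowest. On the log2 scale Ninj1 differed there by -0.28 from the normal-glucose label, and the siRNA label lay 0.42 above it. Each difference had a software error of 0.20. Which reading is right cannot be told from these files. Arrays are therefore called by their labels, and what holds under every reading is that the array labelled siRNA stood apart from the other arrays, which resembled each other. Read by position, the same 4 genes that are lower for the siRNA label than for the normal-glucose label, namely Angpt1, Angpt4, Tek and Angptl4, would be at least 2-fold higher in high than in normal glucose, where 8.09% of all genes would be higher and 6.48% lower by that much. None would pass 2-fold between the siRNA and high glucose.

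Among the ligands, the siRNA label had less Angpt1 and Angpt4 and more Angpt2 than the high-glucose label. Angpt1 had a signal of 1191 on the array labelled siRNA, against 2393 with the high-glucose label and 2337 with the normal-glucose label. The siRNA-labelled array was the lowest and the other arrays were close to each other. On the scaled log2 axis the levels were -0.77, 0.47 and 0.39, so Angpt1 was 2.35-fold lower for the siRNA label than for the high-glucose label (log2 difference -1.23, with an error of 0.20 from the scanner software). Against the normal-glucose label it was 2.23-fold lower (log2 difference -1.16). In bulk RNA, fewer cells of a type and less RNA per cell cannot be told apart, here and for the genes that follow. Angpt2 had a signal of 812 on the array labelled siRNA, against 446 with the high-glucose label and 479 with the normal-glucose label. Here the siRNA-labelled array was the highest, by 1.56-fold over the high-glucose label (log2 difference 0.64, software error 0.20) and by 1.49-fold over the normal-glucose label. Between the siRNA and high-glucose labels, log2 differences of 4534 genes with a mean signal between 400 and 3000 had an SD of 0.75. The Angpt2 difference lay within that SD.

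The remaining ligand, Angpt4, is the mouse counterpart of human angiopoietin 4 and was first described in mice as angiopoietin 3. It was dim, with a signal of 22.4 on the array labelled siRNA, 47.9 with the high-glucose label and 50.9 with the normal-glucose label. The lowest signals counted as well above background were 11.7, 16.4 and 16.9 on these arrays, so Angpt4 was read near the detection limit throughout. It was 2.50-fold lower for the siRNA label than for the high-glucose label (log2 difference -1.32, software error 0.36), and 2.59-fold lower than under the normal-glucose label. With normexp background correction at an offset of 50, a value above Angpt4's own signal on 2 of the 3 arrays, the difference shrank to -0.65.

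**Figure D1:**
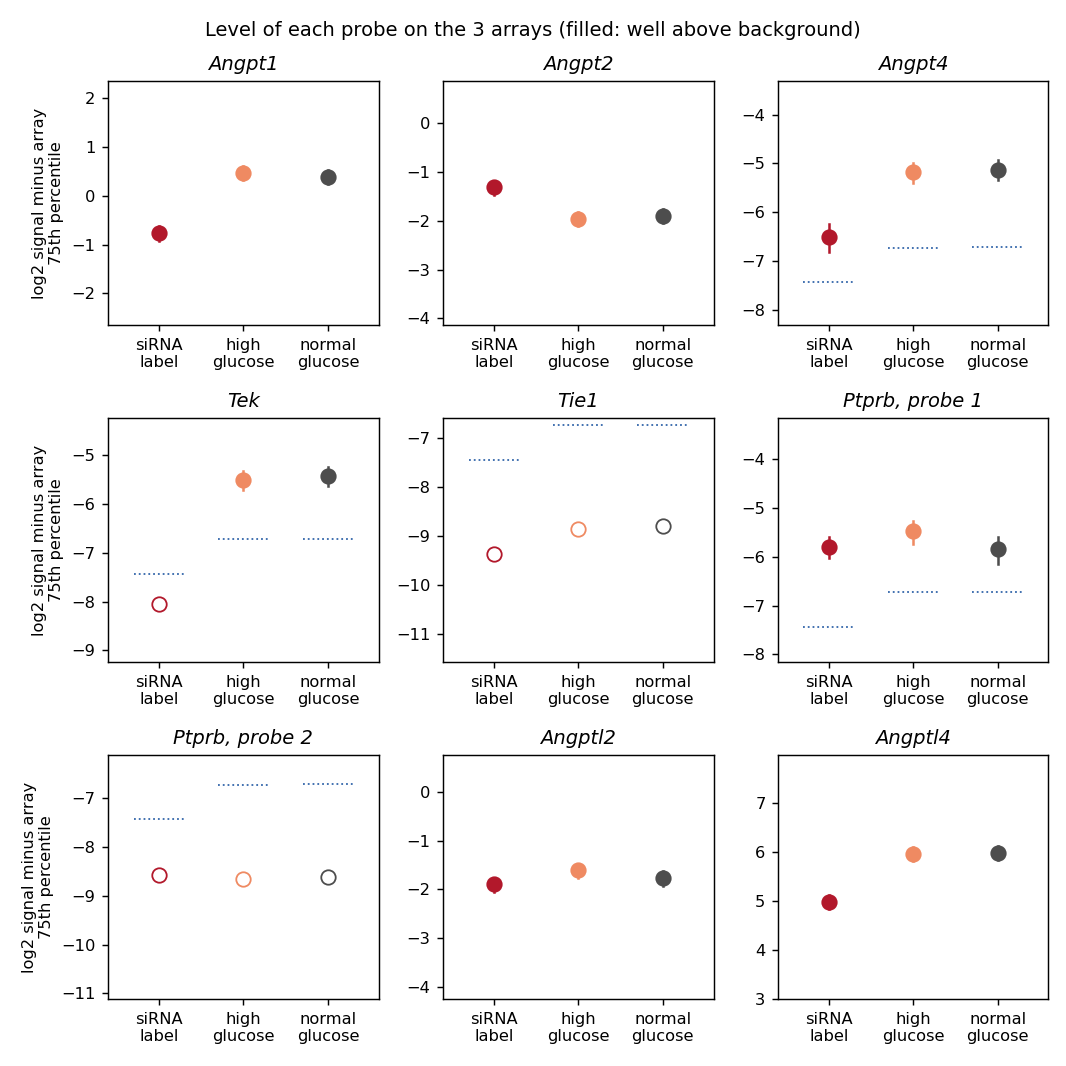
Scaled log2 signal of each of the 9 probes (vertical axis, log2 of the processed signal minus the 75th percentile of the array) on the arrays labelled siRNA, high glucose and normal glucose, with 1 array per group. Filled points were well above background and carry the software's error as a bar, open points were not, and dotted lines mark the lowest value well above background on each array where it falls inside the panel. Angpt1, Angpt4, Tek and Angptl4 sit lowest and Angpt2 sits highest under the siRNA label, and Tie1 is open on all 3 arrays.

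The ratio of the Angpt2 and Angpt1 signals within an array does not depend on a scaling by 1 factor per array. It shows whether the genes changed unequally, while the direction of each rests on the scaling. The log2 ratio of the Angpt2 signal to the Angpt1 signal was -0.55 on the array labelled siRNA, -2.43 with the high-glucose label and -2.29 with the normal-glucose label. The ratio was therefore 3.66-fold higher for the siRNA label than for the high-glucose label, and 3.32-fold higher than under the normal-glucose label. Over the reported and alternative settings with the arrays as labelled, these log2 differences ranged from 1.74 to 1.91 and from 1.56 to 1.75. The alternatives for this ratio were chosen after seeing the data. Each ratio joins probes of unequal brightness, so only its difference between arrays can be read, and it gives no ratio of transcripts. For the high-glucose label minus the normal-glucose label it differed by -0.14 (log2).

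Of the receptors, Tek was read on the high-glucose and normal-glucose arrays only and Tie1 on none. Tek, the gene of Tie2, had a signal of 7.63 on the array labelled siRNA, 38.1 with the high-glucose label and 41.2 with the normal-glucose label. The first of these was not well above background, so the difference is a bound: Tek was at least 3.82-fold lower for the siRNA label than for the high-glucose label and at least 4.01-fold lower than under the normal-glucose label. At the measured values the log2 differences were -2.55 and -2.62, with a software error near 0.62 and 0.61. The scanner software still called the dim spot positive and significant, a weaker mark than well above background. The 13.6% error of the Tek signal under the high-glucose label was above the 10% of bright spots. With normexp the bound for the siRNA label against the high-glucose label was -0.71, which is under 2-fold.

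Tie1, the orphan partner of Tie2, had signals of 3.06, 3.72 and 3.98 on the arrays labelled siRNA, high glucose and normal glucose. All were below the lowest value well above background and were not called positive and significant, with software errors of 99.6% of the signal, so no fold is given. An undetected probe does not show that the gene is silent.

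Promoter windows of the receptors and of Angpt4 are shown as a description of their letters. Tek, as a bound, and Angpt4 were lower under the siRNA label on dim probes, and Tie1 was not detected. Angpt1 and Angptl4 were lower as well but had no window to show. A link between the windows and the levels was not tested. RefSeq windows of build GRCm38.p6, with 250 bases before and 50 bases after an annotated start, were matched for 4 of the 8 genes. Each is written 5′ to 3′ on the strand of its gene, and capitals mark the ETS core GGAA (TTCC where it lies on the opposite strand) and the TATA box TATAAA. Tek lies at chr4:94739039-94739338 on the plus strand, Tie1 at chr4:118489800-118490099 on the minus strand and Angpt4 at chr2:151910957-151911256 on the plus strand.
Tek: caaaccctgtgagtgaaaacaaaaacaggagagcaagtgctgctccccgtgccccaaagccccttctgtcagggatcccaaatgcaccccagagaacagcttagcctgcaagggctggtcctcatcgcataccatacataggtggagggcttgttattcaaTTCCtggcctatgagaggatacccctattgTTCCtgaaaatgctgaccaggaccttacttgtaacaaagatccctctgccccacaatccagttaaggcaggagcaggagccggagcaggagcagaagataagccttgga
Tie1: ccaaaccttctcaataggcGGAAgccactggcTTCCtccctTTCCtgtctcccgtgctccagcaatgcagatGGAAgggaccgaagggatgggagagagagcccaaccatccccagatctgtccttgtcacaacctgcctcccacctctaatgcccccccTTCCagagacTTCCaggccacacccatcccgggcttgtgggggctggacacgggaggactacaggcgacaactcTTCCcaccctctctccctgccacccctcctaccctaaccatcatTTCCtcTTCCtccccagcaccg
Angpt4: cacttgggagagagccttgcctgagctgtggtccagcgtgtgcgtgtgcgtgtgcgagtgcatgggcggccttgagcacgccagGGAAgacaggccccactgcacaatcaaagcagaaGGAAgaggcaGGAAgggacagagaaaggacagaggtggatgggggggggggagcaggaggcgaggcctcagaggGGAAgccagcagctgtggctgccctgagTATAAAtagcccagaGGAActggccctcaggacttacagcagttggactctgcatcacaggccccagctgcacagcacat

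Searching both strands, the Tek window held 2 ETS cores, at -89 and -59 from the start, the Tie1 window held 9 and the Angpt4 window held 5. The start used for Tek lies downstream of the first base of its RefSeq gene record, and both Tek cores lie inside that record. The starts used for Tie1 and Angpt4 are the first bases of their records. ETS factors are known activators of Tek and Tie1 in endothelium, but GGAA was present in 96.0% of all 32851 promoter windows of this length, so its presence sets none of these apart. TATAAA was found in the Angpt4 window at -30, and in 13.6% of all windows. The FOXO motif GTAAACA was in none of these windows or that of Angptl2 and in 3.65% of all. The hypoxia response element cores ACGTG and GCGTG were searched as well. GCGTG was found 4 times in the Angpt4 window and in 32.4% of all windows, while ACGTG was in none of the 4 and in 19.6% of all. None of the matches within 1 window overlapped another motif searched. A match is a description of the letters, and absence says only that they are not in this window.

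Ptprb, the gene of the Tie2 phosphatase VE-PTP, was read near background. Its brighter probe had signals of 36.6 on the array labelled siRNA, 38.9 with the high-glucose label and 31.0 with the normal-glucose label. The log2 differences were -0.31 for the siRNA label against the high-glucose label, 0.37 for high against normal glucose and 0.05 for the siRNA label against normal glucose. Their software errors were 0.32, 0.36 and 0.35, so only the difference of 0.37 passed its error, narrowly. The second probe of Ptprb, with signals of 5.28, 4.27 and 4.51, was not marked well above background on the 3 arrays and gives no fold.

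The angiopoietin-like genes were bright or moderately bright. Angptl4, a secreted inhibitor of lipoprotein lipase that PPAR factors and hypoxia induce, had a signal of 64190 under the siRNA label, 108824 with the high-glucose label and 113002 with the normal-glucose label. It was 1.98-fold lower for the siRNA label than for the high-glucose label (log2 difference -0.99) and 2.00-fold lower than under the normal-glucose label, each with a software error of 0.20. These values lie next to the 2-fold threshold, on either side of it. Quantile normalization and cyclic loess put the first at -1.16 for both. Angptl2, a secreted protein linked to inflammation in blood vessels and fat, had signals of 543, 567 and 523 in the same order of arrays. Its difference of -0.29 between the siRNA and high-glucose labels passed the typical spot noise of 0.08 and the software error of 0.20. Neither measure covers the scaling, and most of this difference came from the 75th percentiles of these arrays (2026 and 1731). It also lay within the SD of 0.75 between these arrays for genes with a mean signal between 400 and 3000. The Angptl2 difference of 0.16 for the high-glucose label minus the normal-glucose label passed the typical spot noise only.

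Counted over all members, 0 of 8 were higher and 3 lower by 2-fold or more for the siRNA label relative to the high-glucose label, with 7 compared and Tie1 not readable. The 3 were Angpt1, Angpt4 and Tek, the last as a bound. Over all genes compared, 6.62% were higher and 8.35% lower by this rule between these arrays. A count of 3 among 8 genes chosen by name rests on few genes, and 2 of the 3 are dim. Among all genes measured on both arrays with a mean signal between 20 and 60, 7.63% were higher and 9.65% lower by the same rule (1337 genes). Tek, as a bound, is not among these. Requiring the mark on every array took the share of all genes lower from 8.35% to 7.14%. Genes left out by that filter, as Tek was, were thus called lower more often than the rest. For the siRNA label against the normal-glucose label Angpt1, Angpt4, Tek and Angptl4 made 0 higher and 4 lower, where 6.48% and 8.09% of all genes were called. Both comparisons share the siRNA-labelled array, so the second does not repeat the first independently.

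**Figure D2:**
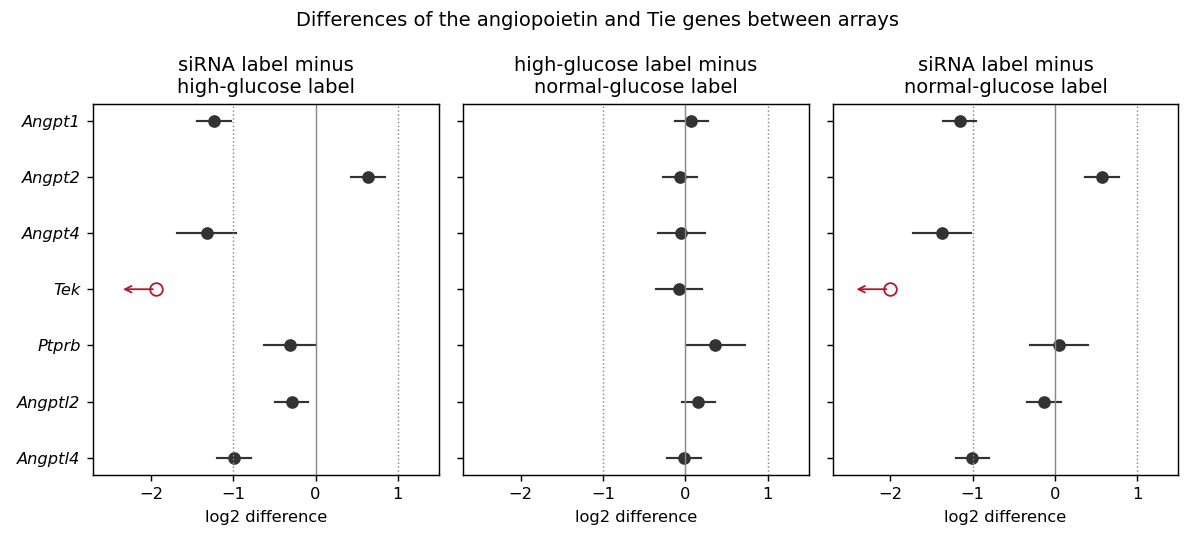
Log2 difference (horizontal axes) of the 7 genes that could be compared, for each pair of arrays, with 1 array per group. Bars are the software's error of the difference, open points with arrows are bounds for Tek, and dotted lines mark 2-fold. In the middle panel (high-glucose label minus normal-glucose label) values lie between -0.07 and 0.37, and those of the siRNA label against either other array span from Tek to Angpt2.

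High against normal glucose, by label, left the set nearly level. None of the 8 genes was at least 2-fold higher or lower, where 0.816% and 0.69% of 15081 genes compared were called. Angpt1 differed by 0.08 on the log2 scale, Angpt2 by -0.06, Angpt4 by -0.05, Tek by -0.07 and Angptl4 by -0.01, all at or under the typical spot noise of 0.08. For Angpt4 and Tek, which were dim, the noise of 0.24 for dim spots is the closer measure. The direction of Angpt4, Tek and Angptl4 in this comparison turned under 1 of the alternative settings each, with values up to 0.08, 0.02 and 0.004. Ptprb, which was dim, differed by 0.37 and Angptl2 by 0.16, but with normexp both differed by 0.19. Genes with a mean signal between 20 and 60 had differences with an SD of 0.44 across 1322 genes between these arrays, against 0.09 for 4534 genes between 400 and 3000.

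**Figure D3:**
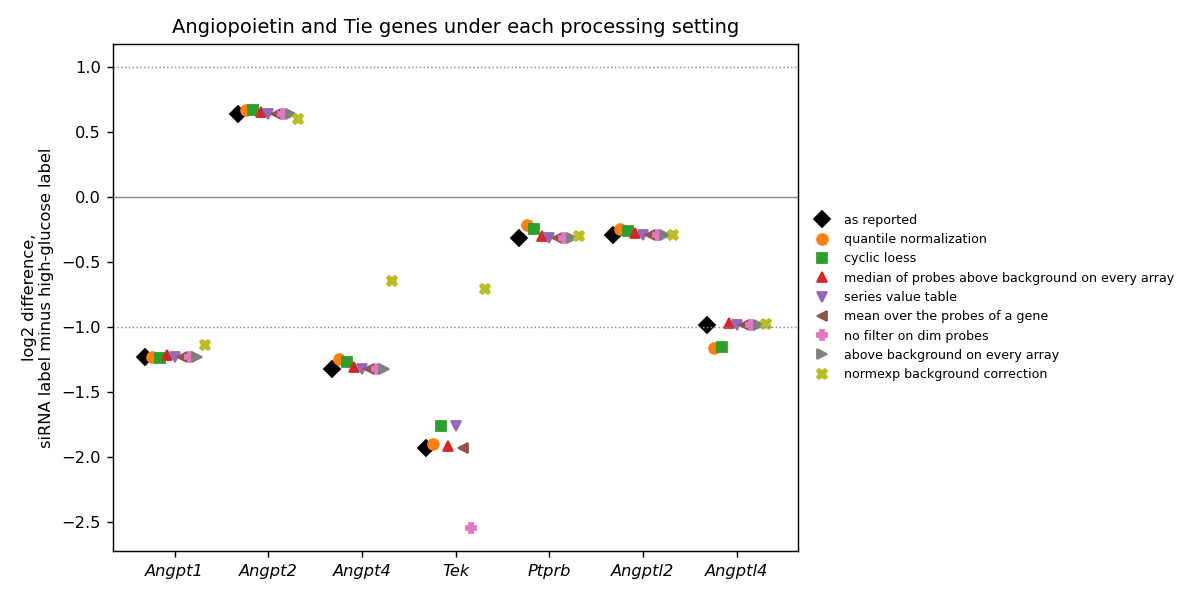
Log2 difference, siRNA label minus high-glucose label (vertical axis), of the 7 genes under the reported setting and 8 alternatives, with dotted lines at 2-fold. Angpt1 and Angpt2 keep their place under all that gave them a value, Angpt4 and Tek move above the lower 2-fold line with normexp background correction, and Angptl4 lies on either side of that line.

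The genes around the Tie2 pathway were described by lists. In Tie2 signalling 20 of 21 genes could be compared between the siRNA and high-glucose labels, of which none was higher and 1 lower by 2-fold or more, with a median log2 difference of -0.14 against 0.02 over all genes. Over all genes 6.62% were higher and 8.35% lower by this rule, so 1 of 20 is no more than the background, and the same shares apply to each list that follows. The lower gene was Grb14, an adaptor that binds activated receptor tyrosine kinases, at 4.44-fold (signals of 2165, 8218 and 8910 under the siRNA, high-glucose and normal-glucose labels). The adaptor Dok2 was 1.87-fold lower, the Tie2-binding NF-kappaB regulator Tnip2 1.60-fold and Grb2 1.59-fold. Foxo1, the transcription factor that Tie2 signalling holds out of the nucleus and that induces Angpt2, differed by -0.26 and Akt1, the kinase between them, by 0.10.

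Among 9 genes of processing and binding, all compared, none was higher and 1 lower by 2-fold or more, with a median of 0.06. That gene was Svep1, a large extracellular matrix protein needed for lymphatic vessel growth, with signals of 2465 under the siRNA label, 21951 with the high-glucose label and 22135 with the normal-glucose label, which is 10.4-fold lower for the siRNA label than for the high-glucose label. The sheddase Adam17 was 1.77-fold lower and the integrin subunit Itgb5 1.38-fold lower, and Itga5, a subunit of the fibronectin receptor, was 1.37-fold higher. Of 16 regulators of transcription 14 were compared, 2 were at least 2-fold lower and none higher, with a median of -0.09. Epas1, encoding the hypoxia-inducible factor HIF-2 alpha, was 3.32-fold lower and Klf4, a flow-responsive factor of endothelium, 2.02-fold lower. Foxc2 and Fli1, factors of lymphatic and blood vessel development, were 1.72-fold and 1.66-fold higher. Erg and Tal1, endothelial and haematopoietic factors, were not well above background on any array.

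The other angiopoietin-like genes went both ways: of 5, 3 could be compared, 1 was higher and 1 lower by 2-fold or more. Angptl6 had signals of 7155 under the siRNA label, 2933 with the high-glucose label and 3167 with the normal-glucose label, which is 2.08-fold higher for the siRNA label than for the high-glucose label. Angptl7 had signals of 13490, 40087 and 42746 and was 3.48-fold lower. Angptl8, a regulator of lipoprotein lipase, differed by -0.06, and Angptl1 lacked the well-above-background mark throughout. In the list of the lipase system and PPAR targets near Angptl4, 15 of 16 genes were compared, 4 were at least 2-fold lower and none higher, beside 8.35% and 6.62% of all genes, with a median of -0.12. The fatty acid transporter Cd36 was 3.46-fold lower, the lipase Lpl itself 3.31-fold and the kinase Pdk4 3.29-fold. Plin2, a lipid droplet coat protein that the same factors induce, was 1.86-fold higher against that direction. For the high-glucose label against the normal-glucose label none of the 5 lists had a gene past 2-fold, and their medians lay between -0.05 and 0.02.

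**Figure D4:**
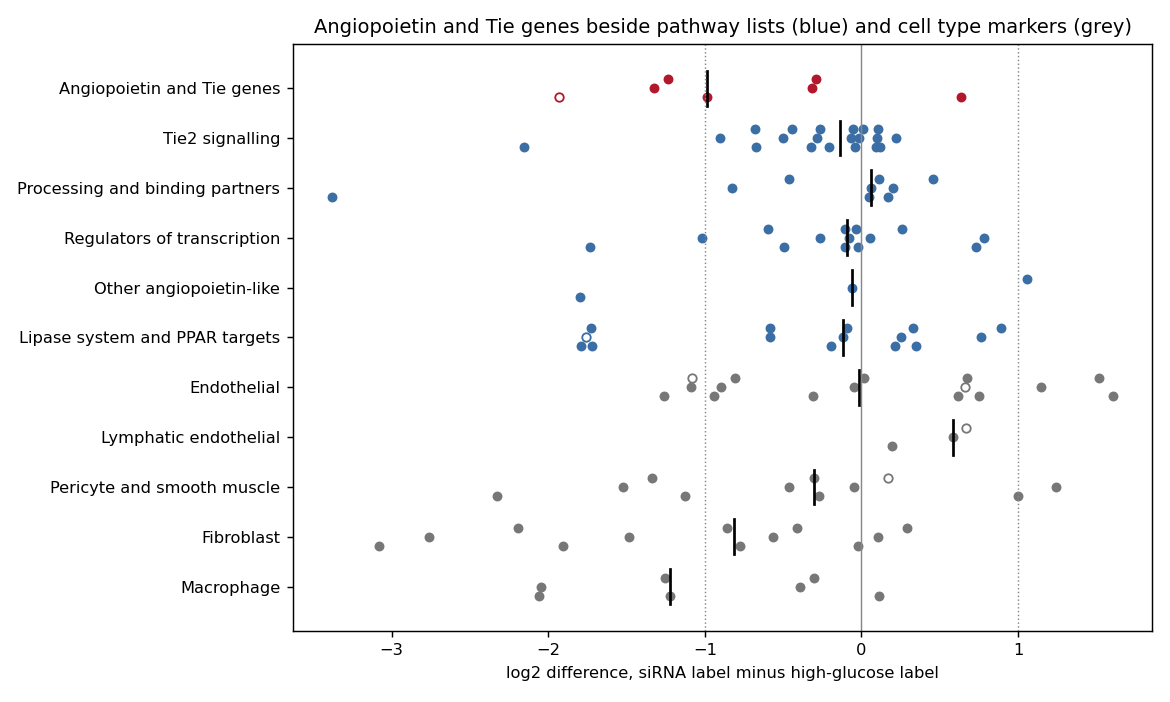
Log2 difference, siRNA label minus high-glucose label (horizontal axis), of each gene compared in the angiopoietin and Tie set (red), 5 pathway lists (blue) and 5 lists of cell type markers (grey). Vertical bars are medians, open points are bounds and dotted lines mark 2-fold. The fibroblast and macrophage lists have medians of -0.82 and -1.22, and the endothelial list spreads to both sides of 0.

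Markers of the cells that could be present differed beside these genes. Of the endothelial markers, 15 of 19 were well above background on each array, but Emcn, Sox18 and Erg were on none, and Pecam1, an adhesion molecule that defines endothelium, had signals of 72.4, 76.5 and 61.9 under the siRNA, high-glucose and normal-glucose labels. Kdr, the main receptor of vascular endothelial growth factor, had signals of 8278, 7298 and 7440. The summed endothelial signal, in multiples of each array's 75th percentile, was 53.5, 52.4 and 54.7. Such a sum is weighted by the brightest probes and serves only to set the arrays side by side. Cd34 alone, with signals of 90072, 76066 and 82620, made up most of the unscaled sums of 108509, 90727 and 97505. The endothelial sum therefore says little about the other markers of the list. Between the siRNA and high-glucose labels 3 endothelial markers were higher by 2-fold or more, namely Sox7, Cdh5 and Esam, and 3 were lower by as much, namely Vwf, Robo4 and Cldn5, the last as a bound. The list median was -0.01. Tek was thus lower beside an endothelial list that went both ways, whose part in its difference was not tested.

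All 12 fibroblast markers were well above background, with a summed signal on the same scale of 402 under the siRNA label, 582 with the high-glucose label and 576 with the normal-glucose label, and 5 were at least 2-fold lower for the siRNA label than for the high-glucose label (median -0.82). The summed signal of 12 pericyte and smooth muscle markers was 29.8, 56.8 and 55.9, with 4 at least 2-fold lower and 1 higher, and a median of -0.31. For the 7 of 8 macrophage markers that could be named it was 12.85, 17.45 and 18.04, with 4 at least 2-fold lower and a median of -1.22. Of 5 lymphatic markers 3 were compared, none past 2-fold, and Prox1, the defining factor, was not marked well above background on the 3 arrays. At any size, 3 of the 11 pericyte and smooth muscle markers compared were higher and 8 lower. Of the 12 fibroblast markers, 2 were higher and 10 lower. Angpt1, a gene of stromal cells, was lower beside these stromal lists, which held genes of both directions. Their part in its difference was not tested.

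Genes with the pattern most like that of a member were sought for Angpt1 and Angpt4, the members at least 2-fold different between the siRNA and high-glucose labels and well above background on all 3 arrays. Likeness was the Euclidean distance between the 3 scaled log2 values of each gene, centred on their mean. Nearest to Angpt1 were Parp14 (0.0030), LOC547349 (0.010) and Tlr6 (0.020), and nearest to Angpt4 were Flrt1 (0.0034), Pced1a (0.0084) and Ifitm6 (0.011). With 3 arrays such nearness is common: 516 of 14358 genes lay within 0.2 of Angpt1 and 394 within 0.2 of Angpt4.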

How the data were processed

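Cy3-labelled RNA from 3 pools was hybridised to 3 arrays. Per the file headers, these lay on 1 slide, and Agilent Feature Extraction 11.0.1.1 turned spot intensity into a background-subtracted, linear processed signal. The deposited series value table equalled that intensity within 0.1% for 100% of 39030 probes with 1 spot. Its column medians were 129 (siRNA), 118 (high glucose) and 118 (normal glucose), so it is linear and not centred, and how it combined repeated spots is unknown.

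Arrays were grouped by label. Outlier spots were left out (107, 147 and 109 in the same order), log2 signals were averaged per probe and the 75th percentile of 39398 probes was taken off. Probes are well above background if 50% or more of their spots had that mark. If only 1 of 2 arrays had it, the dim array's own value or its lowest marked value, whichever was higher, gave a bound, and a bound under 1-fold was left out. Probes were named through accessions in the GRCm38.p6 RefSeq table (26036 probes, 66.1%). The files use mm9, so the only coordinates given are those of the RefSeq promoter windows, on GRCm38.p6. A gene takes its brightest probe among those above background on any array. All 8 members are named with every probe, and up to 4 genes per list by the largest measured difference between the siRNA and high-glucose labels. Foxo1, Akt1, Pecam1, Kdr, Robo4, Cd34, genes given as bounds and genes not above background were named outside that rule, after their values were seen. Members and lists were chosen with earlier results of these data known. Assignment by slide position was added after seeing the data. Alternatives used limma 3.58.1 in R 4.3.3, and the main steps were tested on simulated data. The simulation changed only brighter genes, so it did not test dim ones such as Tek and Angpt4, nor the alternatives. Normexp was planned on mean spot signals and run on median ones. With 1 array per group, the number of arrays limits precision. Some genes of the lists are not reported here by name.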

Additional observations from a re-analysis of the deposited data

How the results depend on the processing

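No paired analysis was possible because each group has 1 array, and for the same reason no replicate could be left out. Exchanging the arrays labelled siRNA and high glucose gave 3 members at least 2-fold higher and 0 lower for siRNA against high glucose, 4 lower for high against normal glucose, and 0 lower for siRNA against normal glucose. Of all genes, 8.35% were then higher and 6.62% lower in the first comparison. The shares were 6.48% and 8.09% in the second, and 0.816% and 0.69% in the third. The exchange turned the siRNA against high-glucose differences to 1.23 for Angpt1, 1.32 for Angpt4 and 1.93 for Tek, and that of Angpt2 minus Angpt1 (alternatives for this value were chosen after seeing the data) to -1.87. Against normal glucose it gave 0.076 for Angpt1 and -0.14 for Angpt2 minus Angpt1. Assignment by slide position, chosen after seeing the data, gave 0 members lower for siRNA against high glucose, 4 higher for high against normal glucose, and 3 higher and 0 lower for siRNA against normal glucose. Of all genes, 0.816% were then higher and 0.69% lower in the first comparison. The shares were 8.09% and 6.48% in the second, and 8.35% and 6.62% in the third. This assignment turned siRNA against high glucose to 0.076 for Angpt1 and -0.14 for Angpt2 minus Angpt1, and siRNA against normal glucose to 1.23 for Angpt1, 1.32 for Angpt4, 1.93 for Tek, 0.99 for Angptl4 and -1.87 for Angpt2 minus Angpt1.

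With normexp, whose offset of 50 shrinks differences of dim probes, 1 member instead of 3 was at least 2-fold lower for siRNA against high glucose, and 2 instead of 4 for siRNA against normal glucose. Of all genes, 5.16% and 5.08% were lower by as much in these comparisons with normexp. A 1.5-fold threshold made 1 member higher, Angpt2, and 4 lower, with Angptl4 added, for siRNA against high glucose. At that threshold 14.5% of all genes were higher and 16.0% lower. The other counts of members stayed within 1.5 times of the reported ones under quantile normalization, cyclic loess, median scaling, the value table, both filters and the mean over probes, although Angptl4 passed 2-fold for siRNA against high glucose with quantile normalization and cyclic loess (4 lower) and missed it for siRNA against normal glucose with median scaling (-0.99, 3 lower), and Tek had no value with the filter on every array. Of all genes, 7.91% with quantile normalization, 8.04% with cyclic loess and 7.95% with median scaling were lower by 2-fold in these comparisons. With the arrays as labelled, the siRNA against high-glucose difference ranged from -1.24 to -1.14 for Angpt1, 0.60 to 0.67 for Angpt2, -1.32 to -0.65 for Angpt4, -2.55 to -0.71 for Tek and -1.16 to -0.97 for Angptl4.

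Over all genes, siRNA against high glucose had 1017 higher and 1283 lower at 2-fold, 619 and 783 with normexp, and 2233 and 2463 at 1.5-fold. High against normal glucose had 123 and 104, then 43 and 33 with normexp, 35 and 26 with the filter on every array, 433 and 329 with no filter, and 229 and 187 at 1.5-fold. For siRNA against normal glucose the counts were 990 and 1237, then 605 and 769 with normexp and 2142 and 2409 at 1.5-fold. Signal over background limits what Tie1, Tek, Angpt4 and Ptprb can show.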
